A study of Homo sapiens with 5 samples.

Results

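The long non-coding RNA genes NEAT1 and MALAT1 lie side by side on the plus strand of chromosome 11, and SMAD2 summits were listed across a window of 120 kb that holds both, from 65170 to 65290 kb on hg19. Members were the summits inside this window in the 4 deposited lists: 153 of 233945 summits in all. The window was divided with gene spans of 65190.3 to 65213.0 kb for NEAT1 and 65265.2 to 65273.9 kb for MALAT1, given to the nearest 0.1 kb. A start was taken as 1 kb either side of the first base of the gene, and the body as the rest of the gene.

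Chromatin bound by SMAD2 was sequenced (ChIP-seq) from T47D, an established human line of estrogen receptor-positive, luminal breast cancer. The cells were given either palbociclib, an inhibitor of the cell cycle kinases CDK4 and CDK6, at 1 µM for 24 h together with activin A at 50 ng/ml for 1.5 h (2 libraries), or activin A alone at the same dose and time (2 libraries). The 4 libraries thus share activin, and no library of cells without it was analysed, so no value here shows an effect of activin. Chromatin was recovered with a single SMAD2 antibody, and the T47D input library was not analysed here. The lists held 62960 and 65207 summits in palbociclib replicates 1 and 2, and 51535 and 54243 in activin replicates 1 and 2. Read depth is unknown, and summit lists hold no expression values against which the labelled cell type could be checked.

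Activin A binds cell surface receptors of the TGF-β family, which phosphorylate SMAD2. Phosphorylated SMAD2 joins SMAD4, enters the nucleus and reaches DNA together with SMAD4 and other transcription factors. NEAT1 RNA is the scaffold of paraspeckles, nuclear bodies that hold proteins such as NONO and SFPQ, and is made as a short and a long isoform from the same start. MALAT1 RNA gathers in nuclear speckles, which store splicing factors, and its 3′ end is cut to release the small cytoplasmic mascRNA. Both RNAs are among the most abundant nuclear long non-coding RNAs of many human cell lines.

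By the RefSeq gene order of GRCh38.p14, FRMD8 and SLC25A45 precede NEAT1, MIR612 starts within the NEAT1 span, FAUP4, ENEMAL and LINC02736 lie between the genes, and TALAM1 (antisense), MASCRNA and SNRPGP19 follow the start of MALAT1. This table is on another build than the summits and was used for the order of names only. The RefSeq promoter table holds MALAT1, with 2 starts that lie 1307 bp apart, and has no entry for NEAT1. Both MALAT1 promoters are therefore the only ones printed. The strongest summit of the window lay near the start of this gene in 3 of the 4 libraries. No sequence under a summit was read. Capitals mark the letters of SMAD elements on either strand: the short element AGAC, its longer form CAGACA, the palindrome GTCTAGAC, and the GC-rich elements, which are GGCGC and also GGCCG. Each sequence runs from 250 bases before a start to 50 bases from it on, 5′ to 3′ on the plus strand.

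MALAT1, first start, GRCh38.p14, chr11:65497488-65497787, plus strand: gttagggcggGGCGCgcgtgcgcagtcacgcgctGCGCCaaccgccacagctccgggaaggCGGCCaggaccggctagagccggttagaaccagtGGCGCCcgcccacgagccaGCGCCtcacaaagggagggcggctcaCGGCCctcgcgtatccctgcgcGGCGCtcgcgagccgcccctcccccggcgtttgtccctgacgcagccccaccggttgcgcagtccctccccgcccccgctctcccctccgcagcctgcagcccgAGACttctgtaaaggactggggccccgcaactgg
MALAT1, second start, GRCh38.p14, chr11:65498795-65499094, plus strand: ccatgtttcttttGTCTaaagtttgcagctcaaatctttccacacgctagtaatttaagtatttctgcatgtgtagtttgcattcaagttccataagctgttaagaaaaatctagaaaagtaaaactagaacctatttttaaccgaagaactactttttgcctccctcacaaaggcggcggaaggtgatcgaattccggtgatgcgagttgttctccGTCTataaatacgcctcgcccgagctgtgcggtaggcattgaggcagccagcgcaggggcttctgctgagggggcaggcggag

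The sequences differed in base composition and in the motifs they held. The promoter of the first start had 73.7% G and C and held GGCGC 6 times and GGCCG 2 times, with 2 of the GGCGC matches overlapping on opposite strands. It held AGAC once, at bases 17 to 20 after the start. The promoter of the second start had 46.0% G and C, held neither GC-rich element, and held AGAC on the minus strand at bases -237 to -234 and -33 to -30. The downstream of these matches overlapped by 1 base a TATA box (TATAAA) at bases -30 to -25, a motif added after the sequences were seen. Of 35116 listed promoters of the same length, 84.0% held AGAC, 48.6% GGCGC, 49.3% GGCCG and 11.5% TATAAA, so such matches are common. The longer SMAD element and the palindrome were in neither window on either strand, nor were the AP-1 motif TGANTCA, the forkhead motif TGTTTAC or its variant form TATTTAC, the GATA motif AGATAA, the FOXH1 motif AATNNACA or the estrogen response element.

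The 2 strongest summits of the window were the same features in 3 of the 4 libraries: 1 near the start of MALAT1 and 1 at the start of NEAT1. A summit's score, read as a −log10 q, comes from the authors' peak caller and is used here only to rank summits within their own list. Scores of different lists are printed side by side as deposited, and whether they differ between treatments was not tested. At MALAT1, palbociclib replicate 1 had its summit at 65266540 with a score of 920, the 10th highest of its list. The activin summits were at 65266557 and 65266548, with scores of 665 and 732, and ranked 14 and 10. These 3 positions spanned 17 bp and lay 1.34 to 1.36 kb past the start of MALAT1 on hg19. The distance between the RefSeq starts printed above is 1307 bp on GRCh38.p14, though the builds were not aligned and the hg19 start is known to the nearest 0.1 kb. No library had a summit within 1 kb of the hg19 start of MALAT1.

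Palbociclib replicate 2 had a different position at MALAT1. Its highest summit of the window was at 65275244, 10.0 kb past the start of MALAT1 and beyond the end of the gene, with a score of 724 and rank 23 in its list. The nearest summit of any other library was 8.69 to 8.70 kb away. Conversely, the nearest summit of palbociclib replicate 2 to those of the other libraries near the MALAT1 start was 4.39 to 4.40 kb away, upstream of the gene. So MALAT1 held 1 and 0 summits in the palbociclib libraries and 1 and 1 in the activin libraries. This difference rests on palbociclib replicate 2: without it every remaining library had 1 summit there, and with the gene end extended by 2 kb, an alternative chosen after seeing the data, the 4 libraries had 1 each. Of the 100 highest summits of palbociclib replicate 2, 1, the summit past MALAT1, lay over 5 kb from any summit of palbociclib replicate 1, and the same was found against each activin library. Such a summit is not particular to this library: activin replicate 2 also had 1 against each other list, activin replicate 1 had 1 against each palbociclib list and 0 against activin replicate 2, and palbociclib replicate 1 had 0. The files hold 1 position for each stretch of enrichment and no widths, so whether the signal over MALAT1 itself differed in this library was not tested.

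**Figure D1:**
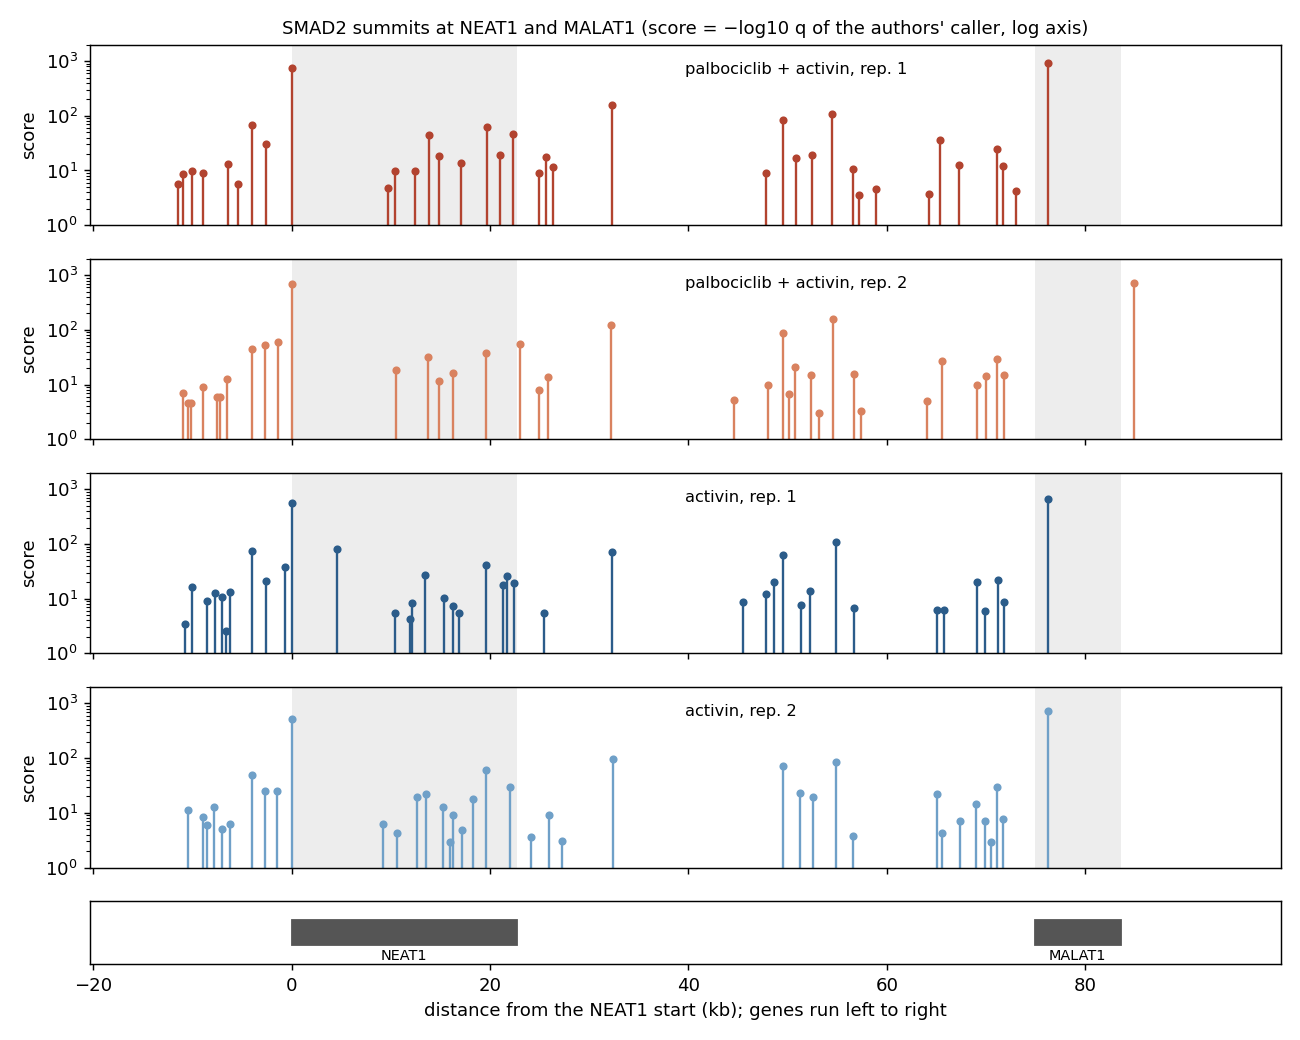
Score of each summit (−log10 q as deposited, log axis, 1 panel per library) against distance from the NEAT1 start in kb; grey bands and the bars at the bottom are the gene spans. Tall summits stand at the NEAT1 start in every panel and just inside MALAT1 in 3 panels, while in palbociclib replicate 2 the tall summit lies past the end of MALAT1.

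MALAT1 was otherwise empty of summits in every library. In the 3 libraries with a summit near its start, the next summit downstream lay 26.1 to 26.2 kb away, outside the window, at 65292755 in palbociclib replicate 1 and at 65292706 and 65292675 in activin replicates 1 and 2. In palbociclib replicate 2 the stretch without another summit ran 13.1 kb before and 17.4 kb after its position. The stretch between the neighbours on either side was thus 29.4 and 30.5 kb in the palbociclib libraries and 30.6 and 30.6 kb in the activin libraries. The median distance between neighbouring summits in the window was 1.54 and 1.42 kb in the palbociclib libraries and 1.37 and 1.39 kb in the activin libraries. Wide empty stretches are no trait of MALAT1 among strong summits: around 37 and 33 of the 100 highest summits of the palbociclib lists, and 37 and 37 of those of the activin lists, the stretch was wider than at MALAT1.

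The summit at the NEAT1 start was listed in every library at nearly the same base. It stood at 65190297 and 65190337 in the palbociclib libraries, with scores of 763 and 677, and ranked 33 and 31. In the activin libraries it stood at 65190307 and 65190307, with scores of 559 and 513, and ranked 29 and 34. All 4 positions lay within 0.037 kb of the NEAT1 start as given, but that start is known only to the nearest 0.1 kb. Each ranked below the highest summit at or past MALAT1 in its own list. A further summit upstream of it within the start zone was listed in activin replicate 1 only, at 65189658 with a score of 37.2.

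Past its start, NEAT1 also opened with a stretch without summits. The next summit downstream lay 9.67 and 10.5 kb away in the palbociclib libraries, and 4.56 and 9.23 kb away in the activin libraries. The nearer one belongs to activin replicate 1, at 65194869, with a score of 80.9 and rank 3695 in its list. The nearest summits of the other libraries lay 4532 to 4572 bp from it, so 1 library alone listed it. As at MALAT1, the files give no widths, so whether signal was absent from this part of NEAT1 was not tested.

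NEAT1 held fewer summits in the palbociclib lists than in the activin lists. The gene, start and body together, held 10 and 6 summits in the palbociclib libraries and 14 and 12 in the activin libraries, or 8.0 ± 2.8 and 13.0 ± 1.4 (SD, n = 2 each). The groups did not overlap, and the difference was -0.67 on the log2 (count + 1) scale. An exact permutation test (two-sided) gave p = 0.333. With 2 libraries in each group no lower p can be reached, so the test cannot separate the groups at 0.05 for any value given here. Among 36085 windows of the same width (23.7 kb) across the genome with a summit in any library, both activin counts exceeded both palbociclib counts in 2.74%, and the reverse held in 12.1%. The median window of this width held 1 summit in each list, and windows with counts like those of NEAT1 were not set apart. The size of the difference rests on palbociclib replicate 2: it was -0.34 without that library and -1.0 without palbociclib replicate 1. The groups shared a count, and so no longer separated, among scores of at least 5 (9 and 6 with palbociclib, 13 and 9 with activin) and among the highest 10000 summits of each list (2 and 1 with palbociclib, 4 and 2 with activin), both with an exact permutation p = 0.667. In the body alone the counts were 9 and 5 with palbociclib and 12 and 11 with activin. These are counts of listed positions, and whether the signal over NEAT1 differed was not tested.

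Regions were formed by chaining summits of the 4 lists at most 200 bp apart. Of the 21 regions of the NEAT1 body, 2 held summits of all 4 libraries and 11 were listed by a single library. The stronger shared region, 19.6 kb past the NEAT1 start at 65209906 to 65209966, had scores of 63.7 and 37.4 in the palbociclib lists and 40.6 and 60.5 in the activin lists. The weaker one, at 65200670 to 65200921, scored 9.90 and 18.8 with palbociclib and 5.56 and 4.24 with activin. Around the end of NEAT1 the libraries listed summits at 65212636 and 65213300 with palbociclib, the second past the gene end, and at 65212692 and 65212261 as the last inside the gene with activin. Unlike the start, the end of the gene thus had no region shared by all 4 libraries.

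**Figure D2:**
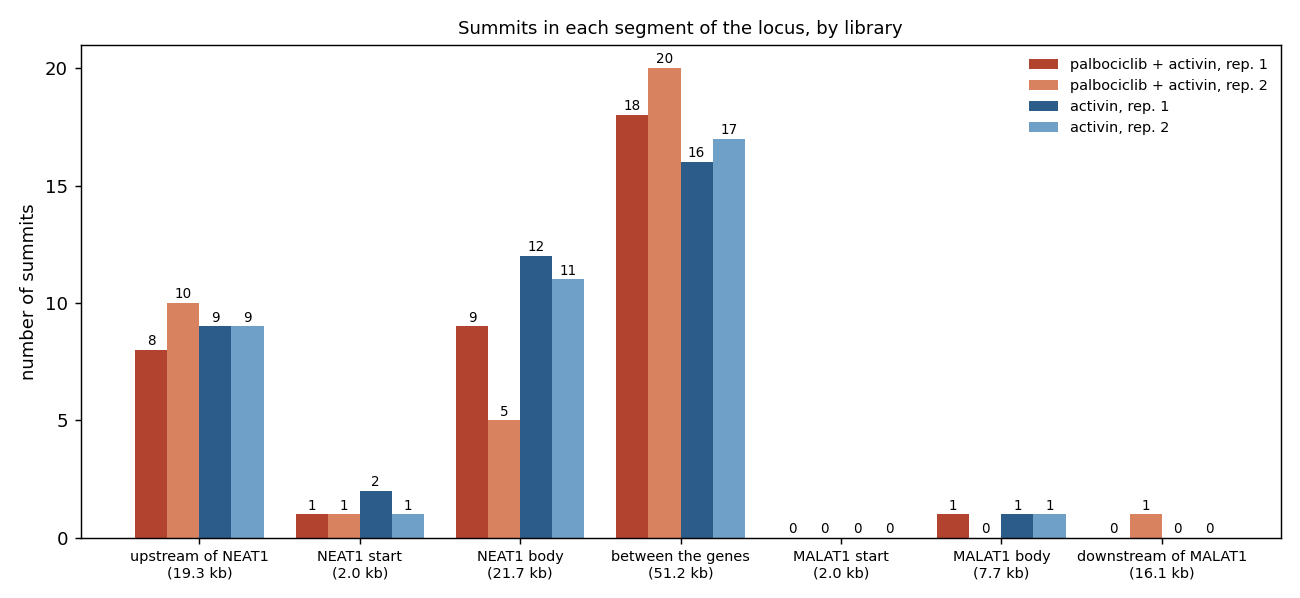
Number of summits in each of 7 segments of the window (width in kb under each name), 1 bar per library. The NEAT1 body holds 9 and 5 summits in the palbociclib libraries and 12 and 11 in the activin libraries, and the stretch between the genes 18 and 20 with palbociclib and 16 and 17 with activin.

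Between the genes the palbociclib lists held slightly more summits than the activin lists. This stretch of 51.2 kb held 18 and 20 summits in the palbociclib libraries and 16 and 17 in the activin libraries, or 19.0 ± 1.41 and 16.5 ± 0.707 (SD, n = 2 each). The difference was 0.19 on the log2 (count + 1) scale (exact permutation p = 0.333). Of 26352 windows of this width, both palbociclib counts exceeded both activin counts in 14.6%, and the reverse held in 2.94%. Here too the median window held 1 summit in each list. The ratio of summed counts, palbociclib over activin, was 1.15 here, against 1.21 over all windows. With the lists cut to equal length the difference was -0.01, with 14 and 18 summits with palbociclib and 16 and 16 with activin.

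Of the 36 regions between the genes, 6 had a summit in every library. The strongest lay 32.3 kb past the NEAT1 start at 65222527 to 65222660, with scores of 158 and 124 in the palbociclib lists and 71.8 and 95.7 in the activin lists. Within their own lists its summits stood at percentile 96.2 and 95.2 with palbociclib and 91.4 and 94.8 with activin. It stood alone: the next summit on the NEAT1 side lay 5.97 and 6.35 kb away in the palbociclib libraries and 6.86 and 5.15 kb away in the activin libraries, and on the MALAT1 side 15.6 and 12.3 kb with palbociclib and 13.2 and 17.2 kb with activin. The region at 65239804 to 65239856, at -25.4 kb from the MALAT1 start, scored 84.3 and 87.4 with palbociclib and 63.0 and 71.6 with activin. Its percentiles within the lists overlapped, at 90.1 and 91.6 with palbociclib and 89.6 and 91.6 with activin. Closer to MALAT1, the shared regions at 65261417 to 65261493 and 65262033 to 65262153 lay at -3.74 and -3.11 kb from its start. Their scores were 24.3 and 29.9 in the palbociclib lists and 22.2 and 29.6 in the activin lists at the first, and 11.8 and 15.0 with palbociclib and 8.87 and 7.58 with activin at the second.

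Upstream of NEAT1 the numbers were alike, at 8 and 10 summits in the palbociclib libraries and 9 and 9 in the activin libraries over 19.3 kb (log2 difference -0.01, exact permutation p = 1.00). Here 3 of 14 regions were shared by the libraries. The one at 65186273 to 65186320 scored 67.1 and 45.3 with palbociclib and 74.3 and 49.2 with activin. Another, at -2.63 kb from the start, scored 30.6 and 53.2 with palbociclib and 20.8 and 24.6 with activin. A region at -1.43 kb from the start was listed in 1 library of each treatment, with scores of 59.8 in palbociclib replicate 2 and 25.4 in activin replicate 2.

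Over the whole window the palbociclib lists held slightly fewer summits, although they were longer. The counts were 37 and 37 in the palbociclib libraries and 40 and 39 in the activin libraries (log2 difference -0.09, exact permutation p = 0.333). As a share of its list the window held 0.0588% and 0.0567% with palbociclib and 0.0776% and 0.0719% with activin, a ratio of means (palbociclib over activin) of 0.773. Of 16464 windows of 120 kb, both activin counts exceeded both palbociclib counts in 3.10%, and both palbociclib counts exceeded both activin counts in 18.8%. Most of these windows held far fewer summits than the locus, and windows of like count were not set apart. The counts overlapped among scores of at least 5 (32 and 33 with palbociclib, 37 and 31 with activin) and among the highest 10000 summits of each list (7 and 8 with palbociclib, 9 and 7 with activin), each with an exact permutation p = 1.00.

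The window ranked among the densest of its width. The median window held 2 summits in each list. By number of summits the locus ranked 36 and 60 among the 16464 windows in the palbociclib lists, and 10 and 13 in the activin lists. At the same count were 2 to 10 windows, the locus itself included. The densest windows held 57 and 71 summits with palbociclib and 55 and 62 with activin. The window whose shares of the 4 lists were most like those of the locus was on chromosome 1 from 156610001 to 156730000, with 37 and 40 summits in the palbociclib lists and 41 and 39 in the activin lists. Its shares differed by a sum of 0.00654 percentage points over the 4 lists. The next in likeness were on chromosome 17 from 79570001, with 38 and 39 summits with palbociclib and 37 and 38 with activin, and on chromosome 16 from 730001, with 41 and 38 with palbociclib and 36 and 39 with activin. The last of the 5 most alike were on chromosome 9 from 139690001, with 36 and 41 with palbociclib and 44 and 40 with activin, and on chromosome 12 from 116650001, with 39 and 38 with palbociclib and 37 and 34 with activin.

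**Figure D3:**
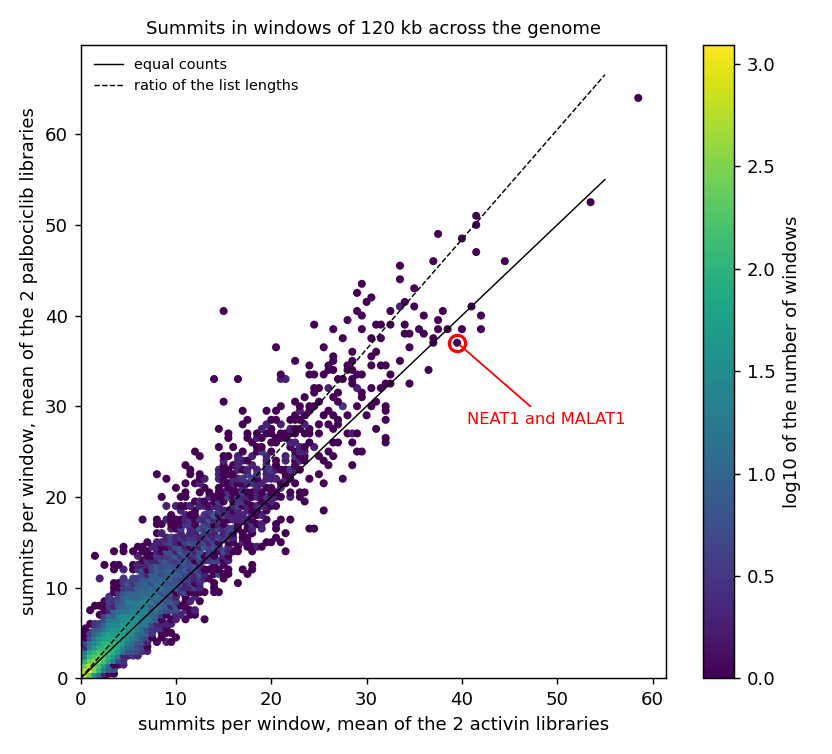
Mean number of summits per 120-kb window in the palbociclib libraries (vertical) against the activin libraries (horizontal) for 16464 windows, coloured by how many windows share a point (log10); the lines show equal counts and the ratio of the list lengths (1.21). The NEAT1 and MALAT1 window (red circle) lies at 37.0 and 39.5, below both lines.

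Apart from its 2 tallest features, the locus was made of summits of middling score. The median summit of the window stood at percentile 60.3 and 66.7 of the palbociclib lists and 60.2 and 64.0 of the activin lists. In the highest 10% of their list were 5 of 37 and 5 of 37 palbociclib summits and 6 of 40 and 5 of 39 activin summits. The third highest summit of the window ranked 2387 and 2003 in the palbociclib lists and 2158 and 2835 in the activin lists, far behind the second.

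How far the libraries listed the same positions was measured as the share of summits with a counterpart within 200 bp. Each palbociclib library shared 59.5% of its locus summits with the other one (whole lists 58.2% and 56.3%). Each activin library shared 57.5% and 59.0% with the other (whole lists 58.0% and 55.1%). Across treatments, the palbociclib libraries shared 43.2% to 51.4% of their locus summits with activin libraries (whole lists 49.1% to 50.5%), and the activin libraries shared 41.0% to 48.7% with palbociclib libraries (whole lists 58.7% to 62.2%). The exact Clopper-Pearson intervals at 95% are wide with 37 to 40 summits. They cover counting error only and treat neighbouring summits as independent, which they are not. The interval was 29.3% to 61.5% for the 45.0% that activin replicate 1 shared with palbociclib replicate 1 (whole list 61.2%), and 25.6% to 57.9% for the 41.0% that activin replicate 2 shared with it (whole list 58.7%). Against palbociclib replicate 2 the intervals were 31.5% to 63.9% for activin replicate 1 (whole list 62.2%) and 32.4% to 65.2% for activin replicate 2 (whole list 59.3%).

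Of the 75 regions of the window, 12 (16.0%) had a summit in every library, where 20.4% of all 115321 regions did. Regions with a summit in both palbociclib libraries and neither activin library numbered 7 (9.33%, against 5.29% of all regions). Those with both activin libraries and neither palbociclib library numbered 6 (8.0%, against 2.22%). Regions of a single library numbered 32 (42.7%, against 50.8%). The summits of neighbouring regions share their libraries and are not independent, and no test was made over regions.

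Most regions of one treatment had a partner of the other treatment beside them. The strongest such pair lay between the genes, at -20.3 and -20.0 kb from the MALAT1 start. Both palbociclib libraries had a summit at 65244797 and 65244910, with scores of 108 and 157 and ranks of 4623 and 2003. Both activin libraries had theirs further on, at 65245196 and 65245184, with scores of 107 and 84.5 and ranks of 2158 and 3530. The nearest summits of these regions were 274 bp apart. In the NEAT1 body, palbociclib summits at 65204125 and 65204050 stood beside activin summits at 65203779 and 65203795, at 255 bp between the nearest of them. Those at 65205185 and 65205155 stood beside activin summits at 65205670 and 65205506, at 321 bp between the nearest. Another pair, with 488 bp between the nearest summits, lay between the genes from 65241012 with palbociclib and from 65241583 with activin.

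These 4 pairs took up 57.1% of the palbociclib regions in the window (4 of 7) and 66.7% of its activin regions (4 of 6). Across the genome, 5.84% of all palbociclib regions and 13.8% of all activin regions lay within 1 kb of a region of the other treatment. Each of the 7 and 6 regions of a single treatment in the window had a summit of the other treatment at most 495 bp away, so none of them marks a stretch of the locus with summits in 1 treatment alone. Over the whole genome, 51.7% of such palbociclib regions and 74.3% of such activin regions had a summit of the other treatment within 1 kb. A neighbour within 1 kb is easier to find where summits are dense, as in this window. Windows of like density were not compared, so whether such pairs are particular to this locus was not tested. With chaining at 500 bp, 1 palbociclib region and 0 activin regions were left. In 3 of the 4 pairs the palbociclib position was the one nearer to the start of NEAT1, and in the pair at 65203779 it was the farther one.

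**Figure D4:**
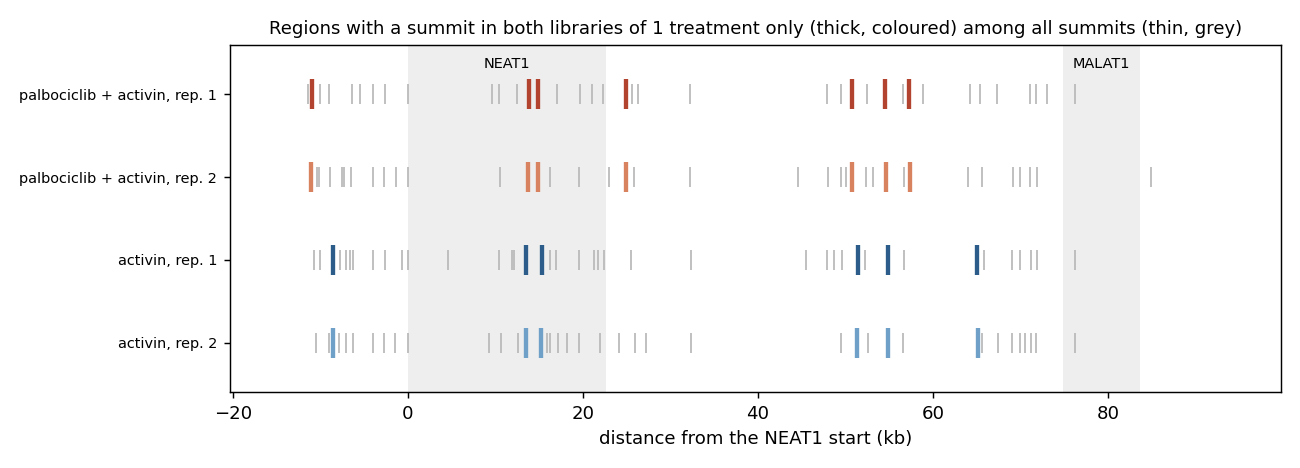
All summits of the window by library (thin grey ticks), against distance from the NEAT1 start in kb; thick coloured ticks mark regions with a summit in both libraries of 1 treatment and neither of the other. Of these, 7 are palbociclib regions and 6 activin regions, and 4 pairs of them lie side by side at slightly shifted positions.

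Regions of a single library held both weak and strong summits. Of the 9 and 6 such regions of the palbociclib libraries, 6 and 4 scored below the median of their list, as did 5 of 10 and 5 of 7 in the activin libraries. Over the whole genome, 87.8% and 85.8% of such regions in the palbociclib lists and 84.4% and 85.1% in the activin lists scored below the median. The strongest were the summit of palbociclib replicate 2 past MALAT1 and that of activin replicate 1 in the first part of NEAT1, both described above. Next came 65213300 in palbociclib replicate 2, with a score of 55.2 and the nearest summits of the other libraries 608 to 1039 bp away. It was followed by 65189658 in activin replicate 1, with a score of 37.2 and those of the other libraries 639 to 679 bp away. The one after that, at 65255670 in palbociclib replicate 1, scored 35.9 and had a summit of each other library within 315 bp.

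At the edges of the window, the first summit inside stood at 65178848 and 65179290 in the palbociclib libraries and at 65179536 and 65179791 in the activin libraries, with scores of 3.4 to 11.3. The nearest summits outside on that side were at 65168125 and 65154189 with palbociclib and at 65154674 and 65164977 with activin. The dense stretch thus began 10.5 to 11.5 kb before the NEAT1 start in the 4 libraries.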

How the data were processed

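SMAD2 ChIP-seq of T47D cells was analysed in 4 libraries. The tools named in the submitters' processing notes are Bowtie 1.1.0, MACS2 2.0.9 and Picard, and the build is hg19; how reads were filtered is not given in the sources used here. A deposited file lists single-base peak summits of 1 library with a score, read as the −log10 q of the authors' caller because the lowest scores, 1.31 to 1.34, lie just above the 1.30 of a q of 0.05. Positions were made 1-based and chromosomes 1 to 22 and X kept. The deposited lists give no depth, so longer lists may reflect depth or enrichment. Members, segments and tests were chosen with earlier results of these data known. Counts were compared as log2 (count + 1) with an exact permutation test. Whether replicates came from separate cultures is not stated, so their spread may be technical. Named regions are those present in every library or in both libraries of 1 treatment, and any other region named was chosen after its values were seen. Chaining and classes were checked on simulated lists whose sites lay far apart. That check does not cover summits as close together as those of this window. Promoter sequences are from RefSeq (GRCh38.p14), in which 1 of the 2 genes matched. Python 3.11.15, numpy 2.4.6, pandas 2.3.3, scipy 1.17.1 and matplotlib 3.10.9 were used.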

Additional observations from a re-analysis of the deposited data

How the results depend on the processing

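The lower counts in the window (-0.09), in its share of the list (-0.0170 percentage points) and in NEAT1 (-0.67) kept their direction under each of the 9, 9 and 12 alternatives, with ranges of -0.11 to -0.07, -0.0199 to -0.0141 and -1.0 to -0.34 when each library was left out in turn, but the window and NEAT1 counts of the treatments no longer separated with scores of at least 5 or among the highest 10000 summits. Not every alternative could change these values. The replicate block returns the main value by construction, and a minimum score of 2 removed no summit of the window. The MALAT1 difference (-0.50) ranged from -1.0 to 0.00 when each library was left out, 0.00 being the value without palbociclib replicate 2, and 0.00 with the gene end extended by 2 kb. The higher count between the genes (0.19) ranged from 0.12 to 0.26 without each library. It turned to -0.01 with lists of equal length, where every list but the shortest, activin replicate 1, loses its lowest scores. Shared regions (12) numbered 7 and 20 at chaining gaps of 100 and 500 bp, 3 among the highest 10000 summits, and 13 to 16 without each library. Palbociclib regions (7) numbered 1 and 0 at gaps of 500 and 1000 bp, 1 among the highest 10000 summits and 8 to 16 without each library. Activin regions (6) numbered 0 and 0 at these gaps, 1 among the highest 10000 summits and 8 to 16 without each library. Wider gaps merge neighbours by construction, and with 1 library left in a group, any summit of it counts. Same-numbered libraries showed little shared deviation (correlation 0.020 over 16464 windows, with 2 libraries per group). The replicate block gave -0.67 in NEAT1, as it must with groups of equal size, so its value does not test the pairing. Paraspeckle and speckle genes, planned as a further list, were not placed, since no hg19 annotation was used here.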
